A study of Mus musculus with 5 samples.

Results

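The genes described here mark the other fates open to C3H10T1/2 cells, bone and cartilage. The list named 10 genes: Runx2, Sp7, Alpl, Ibsp, Spp1, Tnfrsf11b, Sox9, Acan, Bmp4 and Bmp2. A probe set, the group of short array probes read as one value, was taken when the platform annotation gave it exactly 1 of these symbols, and 12 of the 45037 probe sets met that rule. They covered 8 genes, while no probe set was matched to Runx2 or Spp1, which are therefore not analysed here. The samples were adipocytes differentiated from C3H10T1/2, a mouse mesenchymal cell line. They were exposed for 6 h to butein, to sulfuretin or to the solvent DMSO, and in a further set to resveratrol or to its own solvent control, labelled DMSO1. Each of the 5 groups was 1 array, the labels state no dose, and all groups share the same line, differentiation and change of medium on the day before treatment. Butein is a chalcone and sulfuretin an aurone, which differ in that the aurone holds a closed furanone ring. Resveratrol is a stilbene.

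A mesenchymal progenitor can become a fat cell, an osteoblast or a chondrocyte, and the lineages are steered by competing transcription factors. RUNX2 and SP7 (osterix) direct bone formation, SOX9 directs cartilage formation, and the secreted growth factors BMP2 and BMP4 can push C3H10T1/2 cells toward bone or cartilage and, in other settings, toward fat. Alkaline phosphatase (Alpl), bone sialoprotein (Ibsp) and osteopontin (Spp1) belong to the mineralizing matrix, and aggrecan (Acan) is the large proteoglycan of cartilage. Osteoprotegerin (Tnfrsf11b) is a secreted decoy receptor that binds RANKL (Tnfsf11) and so keeps osteoclasts, the bone-resorbing cells, from forming.

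Upstream sequences, the 250 bases before the annotated start, are shown for Bmp4 and Ibsp. Bmp4 read 234 or more on every array, and the bone matrix gene Ibsp stayed under the floor, defined below, on every array. The sequences come from RefSeq, build GRCm38.p6, read 5′ to 3′ on the gene's strand. The Bmp4 window lies at chr14:46390670-46390919 on the minus strand and the Ibsp window at chr5:104299037-104299286 on the plus strand. Capitals mark matches to any of 5 motifs searched on both strands.
Bmp4: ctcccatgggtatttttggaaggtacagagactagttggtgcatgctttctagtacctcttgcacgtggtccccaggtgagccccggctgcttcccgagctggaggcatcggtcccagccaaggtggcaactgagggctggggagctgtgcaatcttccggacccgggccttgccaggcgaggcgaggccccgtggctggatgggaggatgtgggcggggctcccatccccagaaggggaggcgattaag
Ibsp: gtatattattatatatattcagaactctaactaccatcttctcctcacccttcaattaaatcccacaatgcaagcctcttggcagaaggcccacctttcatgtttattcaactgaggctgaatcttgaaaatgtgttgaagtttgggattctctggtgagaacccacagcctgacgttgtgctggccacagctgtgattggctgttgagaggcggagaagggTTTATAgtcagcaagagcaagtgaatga
The motifs were AACCACA (bound by RUNX factors), TGANTCA (AP-1), TGACNNNGC (the antioxidant response element core), GGCGCC (a GC-rich element bound by BMP SMADs, which reads the same on both strands) and TATAAA. No letters of the Bmp4 window matched. The Ibsp window held the TATAAA motif on the opposite strand, read as TTTATA, with its first base at position -28 from the start. In the rat gene an inverted TATA box of this kind is known. Of 32851 RefSeq windows of that length, 12.4% held TATAAA, 4.40% AACCACA, 6.75% TGANTCA, 10.2% TGACNNNGC and 9.59% GGCGCC. The table held 8 windows for 6 of the 10 genes. AACCACA occurred in a window of Runx2 and in 1 of Spp1, which also held TATAAA. The Alpl windows held matches to TGACNNNGC, GGCGCC and TATAAA, and the Acan window held none of the motifs.

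Intensities are on the linear scale of the deposited table. Differences are log2 of the treated array minus log2 of its own solvent array. A probe set was counted when its highest reading on the 5 arrays reached the floor, 8.39, and it was called at a 2-fold difference. The floor is the median over probe sets of the mean log2 reading on the 5 arrays. It pools both sets, is not the median of any 1 array and is not a limit of detection. Acan, under the floor, was above the median of its own array on 3 arrays, and Alpl, which was counted, was above it on none. With 1 array a group there is no replicate error and no test within a comparison, so a call is a statement of size. Of the 12 probe sets 7 were counted, for 5 genes, among 22340 counted single-gene probe sets in all. Of these 7, Alpl and the dimmer Tnfrsf11b probe set reached the floor only on the resveratrol and DMSO1 arrays, where the probe sets as a whole read higher (array medians of 11.5 and 11.1, against 6.85 on each of the butein, sulfuretin and DMSO arrays). Levels are for that reason not compared between the sets, which appear to have been normalized separately.

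The adipocyte identity in the labels was borne out by the adipocyte markers, while some markers of other cells also reached the floor. Of 10 measured adipocyte markers, 9 reached the floor on all 5 arrays, among them Adipoq, Fabp4, Pparg, Cebpa and Lpl, and the leptin gene Lep reached it on none. Of the defining osteoblast markers Ibsp and Dmp1 were under the floor on every array and Sp7 was above it, and Bglap and Bglap2 had no matched probe set. Of 5 defining chondrocyte markers Acan, Matn1 and Hapln1 were under the floor on every array, while Col2a1 and Col9a1 reached it on all. Of 4 measured markers of undifferentiated mesenchymal cells or preadipocytes, Pdgfra and Thy1 reached it on all 5 arrays, and Dlk1 and Cd34 on none. Of 5 markers each, 2 of skeletal muscle, 1 of macrophages and blood and 1 of endothelium reached it on all 5 arrays. The summed intensity of the adipocyte markers was 21289 with butein and 24164 with sulfuretin, against 24294 in DMSO, and 23792 with resveratrol against 25440 in DMSO1.

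**Figure D1:**
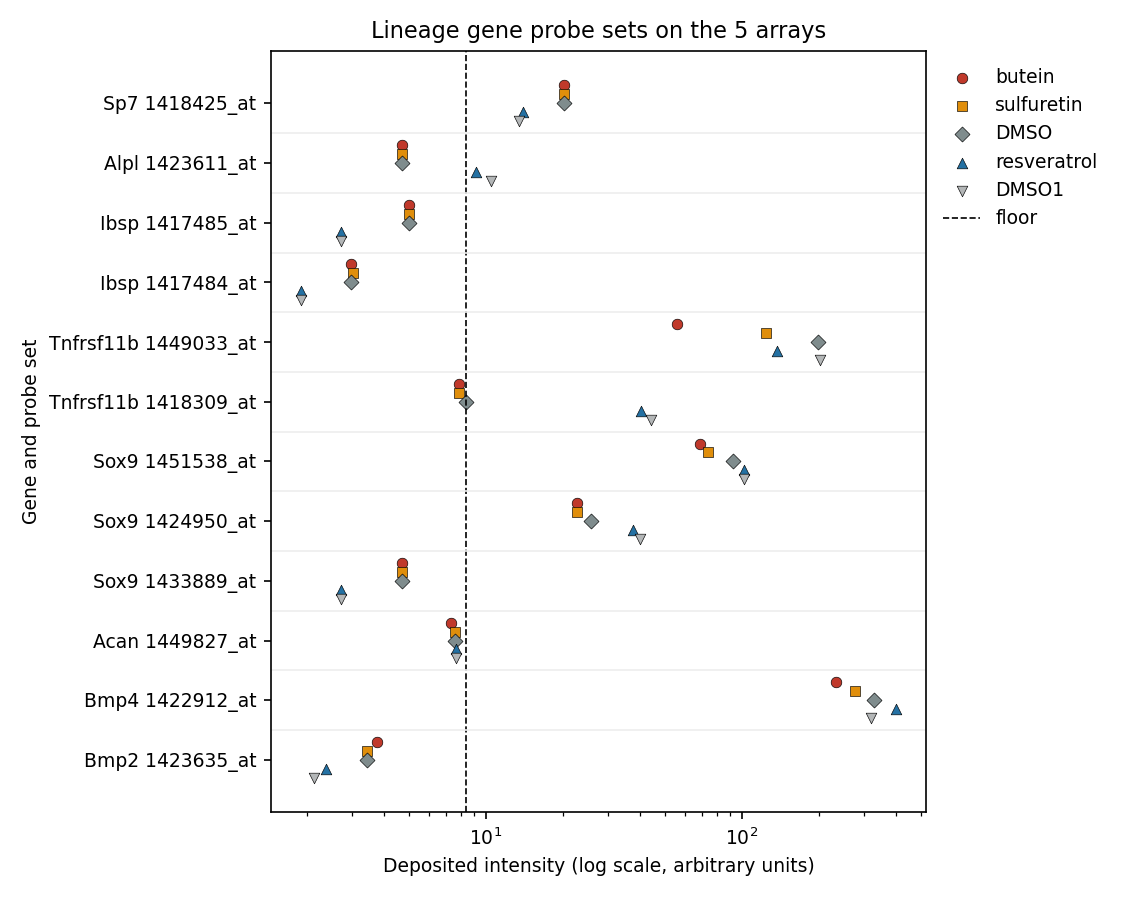
Deposited intensity (horizontal log axis) of each of the 12 lineage gene probe sets (rows) on the 5 arrays, 1 symbol per array; the dashed line is the floor at 8.39. Tnfrsf11b 1449033_at is spread most widely within the butein, sulfuretin and DMSO set, with butein lowest at 55.7.

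Of the transcription factors of bone, Sp7 was represented by 1418425_at. It read 20.2 with butein and 20.2 with sulfuretin, against 20.2 in DMSO, the same value to within 1e-06 on the log2 scale. With resveratrol it read 14.0, against 13.4 in DMSO1, a log2 difference of 0.06. The sign of that difference turned in 5 of 7 alternatives, down to -1.40, those that bring in the other DMSO array. Against DMSO1 it held after joint quantile normalization (0.021) and after centring (0.016). The 3 equal readings lie on a value that 162 probe sets shared on the butein array, 158 on the sulfuretin array and 162 on the DMSO array. Readings off such shared values also occurred, as for Sp7 with resveratrol, held by 1 probe set. How small a change in Sp7 would have moved its reading was not tested. Such ties were common: 33.4% of the counted probe sets were equal between butein and DMSO, 35.6% between sulfuretin and DMSO and 35.3% between resveratrol and DMSO1.

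SOX9, the cartilage factor, had 3 probe sets. The brightest, 1451538_at, read 68.7 with butein and 74.0 with sulfuretin, against 92.3 in DMSO, and 102 on both the resveratrol and the DMSO1 array. Butein and sulfuretin were thus 1.34-fold and 1.25-fold below DMSO, and resveratrol equalled DMSO1. The probe set 1424950_at read 22.8 with butein and 22.8 with sulfuretin, against 25.7 in DMSO (1.13-fold lower in both), and 37.7 with resveratrol against 40.1 in DMSO1 (1.06-fold lower). The sign of the last difference turned in 3 of 7 alternatives, up to 0.55, each of which brings in the other DMSO array. The third, 1433889_at, stayed under the floor on every array, at 4.71 in the butein, sulfuretin and DMSO set and 2.72 in the resveratrol and DMSO1 set. None of the Sox9 differences reached 1.5-fold. The sulfuretin difference of 1451538_at had the opposite sign, 0.10, when all 5 arrays were quantile normalized together and DMSO1 was the control.

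The matrix and enzyme genes gave little or no difference. Alpl (1423611_at) read 4.71 on the butein, sulfuretin and DMSO arrays, a value held by 1402, 1325 and 1373 probe sets of those arrays. With resveratrol it read 9.11, against 10.5 in DMSO1, 1.15-fold lower, close to the floor. The sign of that difference turned in 5 of 7 alternatives, those that bring in the other DMSO array. The Ibsp probe set 1417485_at read 5.0 in the first set and 2.72 in the second, equal within each. The other, 1417484_at, read 2.98 with butein and 3.03 with sulfuretin, against 2.98 in DMSO, and 1.89 with resveratrol as in DMSO1. Acan (1449827_at) read 7.32 with butein and 7.54 with sulfuretin, against 7.54 in DMSO, and 7.65 with resveratrol as in DMSO1. Ibsp and Acan were under the floor on all 5 arrays. Whether a change in a rare transcript could be read at that level was not tested.

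The growth factor genes were unlike in level relative to the floor. Bmp2 (1423635_at) stayed under it, at 3.75 with butein and 3.42 with sulfuretin, against 3.42 in DMSO, and at 2.37 with resveratrol against 2.12 in DMSO1. Bmp4 (1422912_at) read 234 with butein and 278 with sulfuretin, against 329 in DMSO, and 401 with resveratrol against 321 in DMSO1. The differences were 1.40-fold lower with butein, 1.18-fold lower with sulfuretin and 1.25-fold higher with resveratrol. The resveratrol difference was rank 350 from the highest among the 22340 counted probe sets, and 3.73% of them differed at least as much in either direction. None reached 1.5-fold. As deposited DMSO1 was 0.03 below DMSO for Bmp4 on the log2 scale. After joint quantile normalization DMSO1 was 0.44 below DMSO, and against the other solvent array on that scaling the sulfuretin difference was 0.21, the resveratrol difference -0.07 and the butein difference -0.04.

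Tnfrsf11b, the osteoprotegerin gene, was the 1 member called. Its brighter probe set, 1449033_at, read 55.7 with butein and 124 with sulfuretin, against 199 in DMSO, and 137 with resveratrol against 203 in DMSO1. Each treated array was below its own solvent array, and butein was below sulfuretin. The gene was 3.58-fold lower with butein, 1.61-fold lower with sulfuretin and 1.48-fold lower with resveratrol. Over 7 alternatives of scaling and control the log2 difference lay between -1.86 and -1.35 with butein, between -0.71 and -0.24 with sulfuretin and between -0.98 and -0.54 with resveratrol. Some of the 7 give the same value, as described with the processing. At -0.24 the sulfuretin difference no longer reached 1.5-fold. Among the counted probe sets these differences were rank 6, 67 and 89 from the lowest. A limma fit that treated both solvent arrays as replicates of 1 control, although they belong to different sets, called no member with any treatment, beside 0.0377% of all probe sets with butein and 0 with sulfuretin and resveratrol. In bulk RNA fewer cells with a transcript cannot be told apart from less of it per cell.

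The other Tnfrsf11b probe set, 1418309_at, did not show this difference. It read 7.83 with butein and 7.83 with sulfuretin, against 8.37 in DMSO, all under the floor, and 40.4 with resveratrol against 44.1 in DMSO1. With resveratrol it was 1.09-fold lower. The butein and sulfuretin readings are a value shared by 643 and 652 probe sets of those arrays, so the lower Tnfrsf11b reading with both compounds rests on 1449033_at alone. The sign of the resveratrol difference of 1418309_at turned in 5 of 7 alternatives, those that bring in the other DMSO array. It was 2.27 against DMSO in place of DMSO1.

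**Figure D2:**
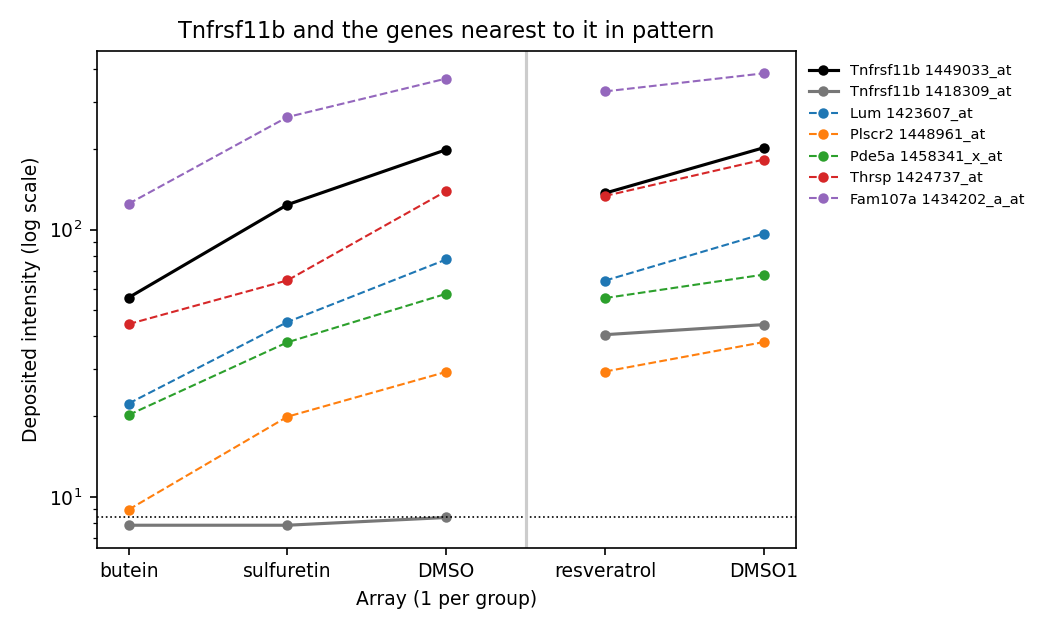
Deposited intensity (log axis) of the 2 Tnfrsf11b probe sets (solid lines) and 5 genes near 1449033_at (dashed lines) on the 5 arrays. The dashed genes are the nearest in treatment differences once clone and predicted names are left out. The vertical line parts the sets and the dotted line is the floor. The dashed genes and 1449033_at are lowest with butein in the left set, while 1418309_at stays at or below 8.37 there.

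Of the 7 counted probe sets 5 reached the floor on the butein, sulfuretin or DMSO arrays. With butein 4 of these read lower and 1 equal, with a median log2 difference of -0.43, against 0 over all probe sets that reached the floor in that comparison, of which 39.3% were lower. The 1 called, Tnfrsf11b, stands beside a background of 0.363% of all counted probe sets at least 2-fold lower with butein and 2.26% in either direction. Of the probe sets that reached the floor in that comparison 2.84% differed at least 2-fold in either direction. With sulfuretin 4 of the 5 read lower and 1 equal, with a median of -0.24, and 35.4% of all were lower. None was called, beside a background of 0.242% of all counted probe sets and 0.305% of those that reached the floor in that comparison. Only Tnfrsf11b passed 1.5-fold lower, beside 0.524% of all counted. With resveratrol 4 of the 7 were lower, 2 higher and 1 equal, with a median of -0.09, and 33.9% of all were lower. None was called, beside 0.116% of all counted and 0.118% of those that reached the floor in that comparison. The medians of all 7 against their own solvent arrays were -0.18 with butein, -0.18 with sulfuretin and -0.09 with resveratrol. They depend on the control and the scaling. Against the other solvent array after joint quantile normalization, the medians of the 7 were -0.04 with butein, -0.00073 with sulfuretin and -0.29 with resveratrol. The butein and sulfuretin differences share the DMSO array. Of 9 counted adipocyte markers 8 were lower and 1 equal with butein (median -0.23), 4 lower and 5 higher with sulfuretin (median 0.001) and 9 lower with resveratrol (median -0.11). The part of this shift in the differences above was not tested.

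**Figure D3:**
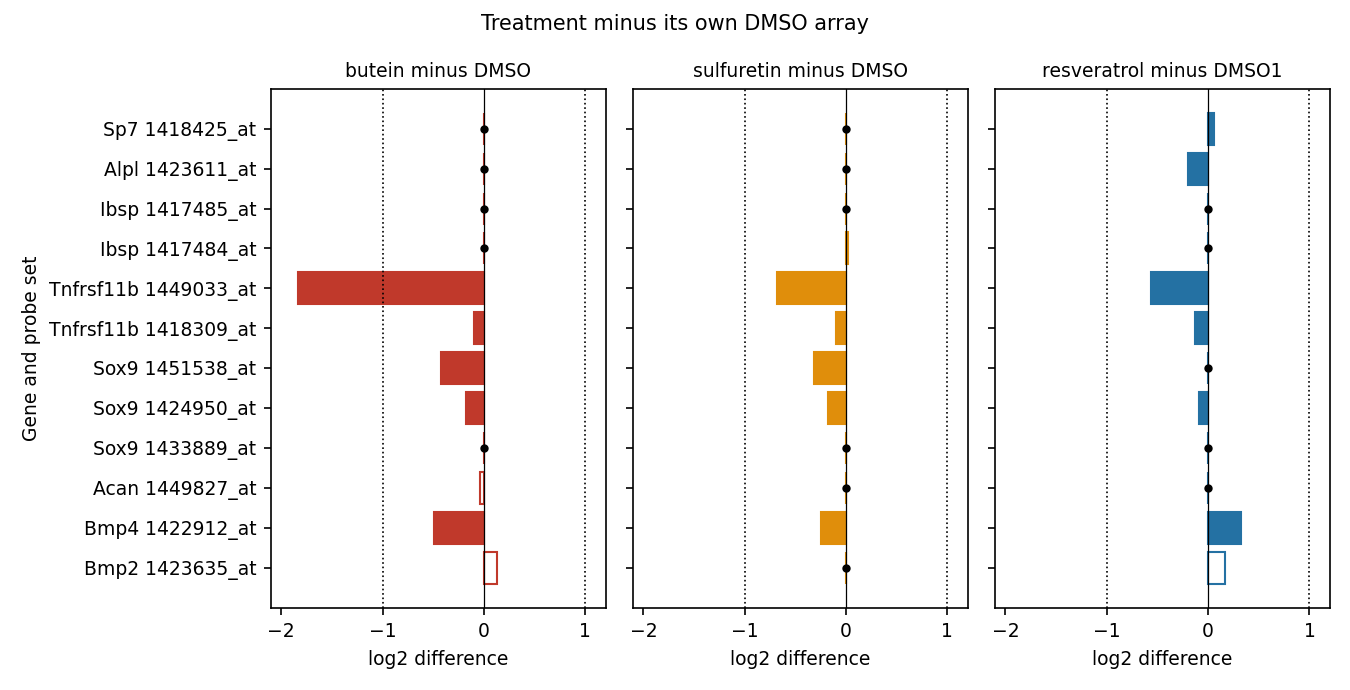
Log2 difference of each lineage gene probe set between a treated array and its own solvent array; filled bars are probe sets that reached the floor, open bars those that did not, black dots mark a difference of 0 and dotted lines the 2-fold criterion. Tnfrsf11b 1449033_at with butein, at -1.84, is the 1 bar past the criterion.

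Set against each other, the aurone and the chalcone differed most in Tnfrsf11b. Sulfuretin read 124 and butein 55.7 on 1449033_at, 2.23-fold higher with sulfuretin, the 1 counted member past 2-fold, beside a background of 0.0895% at least 2-fold higher. Bmp4 was 1.19-fold and Sox9 (1451538_at) 1.08-fold higher with sulfuretin than with butein. Sp7 and Sox9 1424950_at were equal on the 2 arrays, and Alpl and Tnfrsf11b 1418309_at were under the floor on both. The 2 compounds were read at the same time, the labels state no dose for either, and no interval can be put on these differences. Resveratrol belongs to the other set and is not set against them directly.

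Genes whose 3 treatment differences were close to those of Tnfrsf11b (1449033_at) were sought by Euclidean distance over 12439 counted genes. Genes with clone or predicted names were left out, so nearer ones may exist. The nearest of the rest were Lum at a distance of 0.11, Plscr2 at 0.27, Pde5a at 0.44, Thrsp at 0.48 and Fam107a at 0.49. The butein and sulfuretin differences use the same DMSO array. Lum, which encodes the matrix proteoglycan lumican, read 22.3 with butein and 45.1 with sulfuretin, against 77.3 in DMSO, and 64.4 with resveratrol against 96.6 in DMSO1. Its log2 differences were -1.79, -0.78 and -0.58, next to -1.84, -0.68 and -0.57 for Tnfrsf11b. Pde5a was read by a probe set of a class that can cross-hybridise.

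The partners of osteoprotegerin were mostly under the floor. The RANKL gene Tnfsf11 and the TRAIL gene Tnfsf10, whose products osteoprotegerin binds, were under the floor on every array, and so were the osteoclast genes Ctsk, Acp5 and Calcr. The RANK gene Tnfrsf11a read 9.81 on each of the butein, sulfuretin and DMSO arrays. Of 10 genes listed 5 were counted, and butein was at least 2-fold higher in 1, Csf1, beside a background of 2.03% of genes. Csf1, which encodes the macrophage growth factor M-CSF that osteoclast precursors need, read 464 with butein and 199 with sulfuretin, against 212 in DMSO, and 365 with resveratrol against 269 in DMSO1. It was 2.18-fold higher with butein, and of its 3 other probe sets 1 was 2.08-fold higher and 2 were equal to DMSO.

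Ligands and antagonists of the BMP family other than Bmp2 and Bmp4 had 11 counted genes of 16 measured. With butein 7 were lower, 4 equal and none higher, and 2 were called lower, beside a background of 0.297% of genes. Of all counted probe sets 34.9% were lower with butein, 33.4% equal and 31.8% higher. These shares are over all probe sets of a gene, while each of the 11 genes was read on its brightest. Among the 7, Fstl3 was under the floor on both arrays, at 6.15 with butein and 6.85 in DMSO. Fst, the gene of follistatin, which binds activin and some BMPs, read 30.4 with butein and 50.0 with sulfuretin, against 96.2 in DMSO, and 166 with resveratrol against 132 in DMSO1. It was 3.17-fold lower with butein, 1.93-fold lower with sulfuretin and 1.25-fold higher with resveratrol. Its second probe set was 2.49-fold lower with butein and 2.41-fold lower with sulfuretin, so Fst passed 2-fold with sulfuretin on that probe set and not on the brighter one. Gdf5, a growth factor gene of joint cartilage, read 8.95 with butein and 14.3 with sulfuretin, against 20.2 in DMSO, and 33.1 with resveratrol against 56.0 in DMSO1. It was 2.26-fold, 1.41-fold and 1.69-fold lower, all treated arrays being below their own solvent array, and its butein reading was near the floor. The antagonist genes Grem1 and Chrd were within 1.5-fold of their solvent arrays with each treatment, and Nog was under the floor.

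The receiving side of the BMP pathway was present on the arrays. Of 13 receptor and SMAD genes 10 were counted and none was called with any treatment on its brightest probe set. With butein 1 other probe set of Acvr2a and 1 of Smad5 were at least 2-fold higher, whether or not they reached the floor. On the brightest, Acvr2a was 1.53-fold and Smad5 1.02-fold higher. The medians were 0.06 with butein, 0.07 with sulfuretin and 0.03 with resveratrol. Smad1, a signal transducer of BMP receptors, read 169 with butein and 124 with sulfuretin, against 109 in DMSO. Among 10 BMP target genes, all counted, none was called, and the medians were -0.05, -0.12 and 0.09. Id1, a standard readout of BMP signalling that encodes an inhibitor of differentiation factors, read 452 with butein and 305 with sulfuretin, against 487 in DMSO, and 565 with resveratrol against 563 in DMSO1.

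Other osteoblast genes had 15 counted of 19 measured, with medians of -0.13 for butein and 0 for sulfuretin and for resveratrol. Among them Dlx3 and Ifitm5 were under the floor on the butein, sulfuretin and DMSO arrays. Their differences of 0 there enter the butein and sulfuretin medians. The 1 called was Atf4, 2.13-fold higher with butein, at 1238 with butein and 691 with sulfuretin, against 580 in DMSO. It encodes a factor that osteoblasts use but that also answers amino acid and ER stress. Its other probe sets were 1.96-fold and 1.17-fold higher. The collagen genes Col1a1 and Col1a2 and Sparc, which adipocytes and fibroblasts express too, were within 1.5-fold of their solvent arrays with every treatment. Omd, the gene of the bone proteoglycan osteomodulin, read 48.8 with butein and 66.6 with sulfuretin, against 90.0 in DMSO, and 113 with resveratrol against 121 in DMSO1, below its solvent array with each.

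Other chondrocyte genes had 10 counted of 21 measured and medians of 0, -0.04 and 0 with butein, sulfuretin and resveratrol. Prg4, the gene of the joint lubricant lubricin, was the 1 called, at 134 with butein and 16.1 with sulfuretin, against 11.9 in DMSO, and 58.4 on both the resveratrol and the DMSO1 array. It was 11.3-fold higher with butein, on its only probe set, over a DMSO reading not far above the floor. The cartilage collagen gene Col2a1, which SOX9 activates, read 25.8 with butein and 34.6 with sulfuretin, against 44.4 in DMSO, and 51.6 with resveratrol against 51.1 in DMSO1. Col11a1 read 54.6 with butein and 81.9 with sulfuretin, against 104 in DMSO, and 96.5 with resveratrol against 111 in DMSO1. Both were below DMSO by less than 2-fold with butein and with sulfuretin.

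Mineralization genes had 6 counted of 7 measured, and Wnt pathway genes of bone 11 of 17. Slc20a1, the gene of a phosphate importer, was 5.65-fold higher with butein, at 143 with butein and 35.9 with sulfuretin, against 25.2 in DMSO, and 57.4 with resveratrol against 45.7 in DMSO1. Its other 2 probe sets stayed under the floor. The mineralization inhibitor gene Mgp read 2232 with butein and 2107 with sulfuretin, against 2256 in DMSO. No Wnt pathway gene was called with any treatment, and their medians were -0.05 with butein, 0 with sulfuretin and 0 with resveratrol. Over the 8 lists 78 genes were counted and 6 were called with butein, 0 with sulfuretin and 0 with resveratrol, beside backgrounds of 2.32%, 0.241% and 0.145% of genes. At 1.5-fold these counts were 15, 2 and 1, beside 7.48%, 1.74% and 0.699%, and at 3-fold butein had 3, beside 0.925%. The lists were chosen with earlier results of these data known. The counts beside the backgrounds are therefore descriptive and no test of an excess. Of the 78 genes, Dlx3, Ifitm5, Sox5, Col11a2, Oscar, Fstl3, Hey1, Smpd3 and Lrp5 reached the floor only on the resveratrol and DMSO1 arrays. Ucma reached it only on the butein, sulfuretin and DMSO arrays. The list counts and medians include such genes also in comparisons where they were under the floor.

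**Figure D4:**
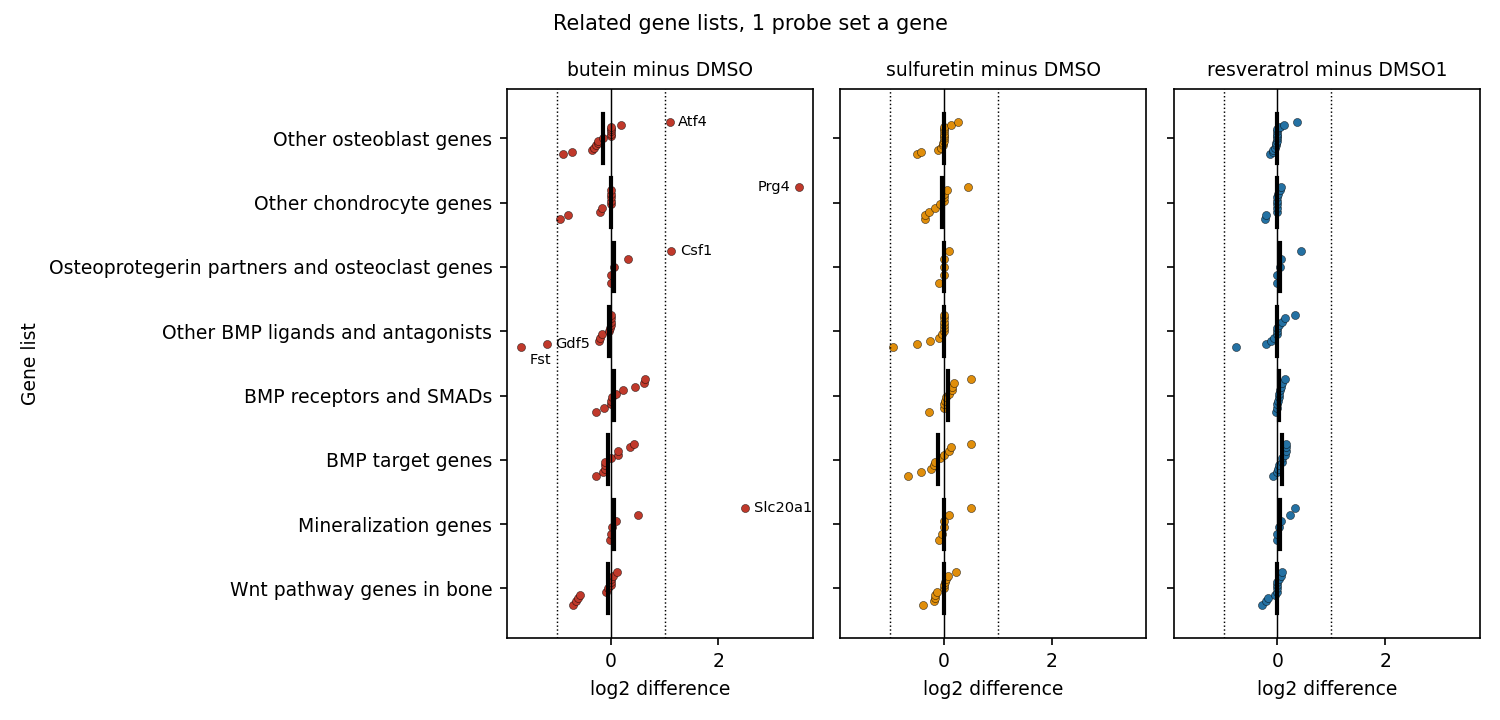
Log2 difference of each counted gene (points) of 8 related lists in the 3 comparisons; black bars are list medians, dotted lines the 2-fold criterion, and called genes are named. The 6 named genes all lie in the butein panel, and the medians lie between -0.13 and 0.09.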

How the data were processed

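Biotinylated cRNA from 500 ng of total RNA was hybridised to Affymetrix mouse arrays, per the labels' protocols. Per the submitters' processing notes the authors used RMA. The deposited table holds linear intensities, not log2 values, judging from a range that ends at 9340. The RMA version is not given in the sources used here. Log2 was taken with no pseudocount. Of 45037 probe sets 34945 name 1 gene, 932 several and 9160 are unnamed in the annotation used. Related genes carry the current symbol of their gene ID in a RefSeq table of GRCm38.p6, which matched 34741 probe sets, and each was read on its brightest probe set. The members, gene lists and tests were chosen with earlier results of these data known. All member probe sets are named, along with up to 4 related genes a list past 2-fold per treatment and the markers. Also named are the 5 genes nearest to Tnfrsf11b once clone and predicted names are left out. Other related genes were named after their values were seen, for their roles. The number of arrays limits the precision.

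Alternatives were criteria of 1.5-fold and 3-fold, other floors, 1 probe set a gene, joint quantile normalization, centring, a change of control to the opposite DMSO array or to the average of both, and limma with both DMSO arrays as replicates (1 residual degree of freedom), which assumes that lone treated arrays vary like these. Its spread between the DMSO arrays holds the shift between the separately normalized sets. As deposited its prior degrees of freedom were infinite, so 1 common standard error, 0.70, served every probe set. The 7 alternatives given for single probe sets are not 7 distinct checks. Centring left the butein and sulfuretin differences unchanged, because these arrays and DMSO have the same median. As deposited, limma gave the same difference as the average of both DMSO arrays. Leaving out Tnfrsf11b, a floor set within each comparison, the same floor reached within the comparison and limma after joint quantile normalization were chosen after seeing the data. Tools were limma 3.58.1 in R 4.3.3, and Python 3.11.15 with pandas 2.3.3, numpy 2.4.6, matplotlib 3.10.9 and scipy 1.17.1. The procedure was tested on simulated data.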

Additional observations from a re-analysis of the deposited data

How the results depend on the processing

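The count of called members rests on 1 Tnfrsf11b probe set: without that gene butein had 0. limma with both DMSO arrays as replicates called 0 of the 7 counted probe sets with any treatment, as deposited and after joint quantile normalization. For butein 1, Tnfrsf11b, had an unadjusted p under 0.05 (0.00787 and 0.0222; limma adjusted p 0.9999 and 0.985) at log2 differences of -1.85 ± 0.70 and -1.57 ± 0.30 (SE). For sulfuretin and resveratrol 0 had. These p-values rest on the difference between arrays of 2 separately normalized sets.

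Values here are for butein, sulfuretin and resveratrol in that order. With the other DMSO array as control 3, 2 and 1 of the 7 were called, beside 30.0%, 28.0% and 29.1% of all counted probe sets, and the medians were -0.82, -0.71 and 0.29, beside -0.65, -0.63 and 0.65 over all. With the mean of both 2, 1 and 1 were called, beside 6.62%, 4.83% and 4.48%. With joint quantile normalization and the other array 3, 2 and 2 were called, beside 13.4%, 11.2% and 11.4%, and the medians were -0.04, -0.00073 and -0.29. At 1.5-fold sulfuretin had 1. Of the 78 related genes, the other array called 19, 17 and 10, beside 21.1%, 18.0% and 19.4% of all genes. Joint quantile normalization with it called 11, 7 and 5, beside 8.91%, 6.08% and 6.27%, and the mean of both 9, 2 and 1, beside 3.63%, 1.29% and 1.37%. At 1.5-fold 15, 2 and 1 were called, and at 3-fold 3 with butein. The array medians of DMSO1 and DMSO differ by 0.70 (log2), so counts on the other array as deposited carry that scale.

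DMSO1 minus DMSO, as deposited, after joint quantile normalization and after centring, was -0.59, -1.42 and -1.29 for Sp7, 2.40, 1.60 and 1.70 for Tnfrsf11b 1418309_at, 0.14, -0.42 and -0.56 for Sox9 1451538_at, and 0.64, -0.19 and -0.057 for Sox9 1424950_at. In the same order it was 1.15, 0.76 and 0.45 for Alpl, 0.02, -0.42 and -0.67 for Tnfrsf11b 1449033_at, and -0.03, -0.44 and -0.73 for Bmp4. After joint quantile normalization 11% of counted probe sets differed at least 2-fold between the solvent arrays. The cause of these shifts was not tested. No paired analysis was possible because each group is 1 array. Readings under the floor limit what can be seen of Ibsp, Acan, Bmp2 and 1 Sox9 probe set.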
